A study of Mus musculus with 6 samples.

Results

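The genes described here make ribosomes in the nucleolus, the part of the nucleus where ribosomal RNA is transcribed, trimmed, modified and packed with protein. The set was a fixed list of 36 mouse genes of nucleolar ribosome biogenesis, and each gene was read by the brightest of its probe sets, by mean over the arrays. Of these genes, 35 had a probe set assigned to 1 gene, among 18193 genes with such a probe set, and all 35 were bright enough to be tested, among 10916 genes tested. Mrto4 was read by a probe set shared with its pseudogenes and is not reported.

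Ribosome production begins with RNA polymerase I, which transcribes a long precursor of the ribosomal RNAs. Small nucleolar ribonucleoproteins (snoRNPs) of the box C/D and box H/ACA kinds guide methylation and pseudouridylation of that precursor, and the small-subunit processome and the large-subunit assembly factors cut and fold it into pre-40S and pre-60S particles. Many of these genes are known targets of MYC-family transcription factors, and their output is tied to cell growth and to cytokine signalling in blood cells.

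Messenger RNA was hybridised to 6 Affymetrix mouse expression arrays. The cells were Ba/F3, an interleukin 3-dependent mouse line of pro-B origin, grown in culture; in such bulk RNA fewer expressing cells and less RNA per cell cannot be told apart. The NCOR1-LYN group (n = 3) held cells transduced with a retroviral Tet-on construct and given doxycycline to express NCOR1-LYN, a fusion of a nuclear receptor corepressor with a SRC family tyrosine kinase. The control group (n = 3) held uninduced cells without doxycycline, called mock cells in the study's design. The dose and duration of doxycycline are not given in the sources used here. Doxycycline and the fusion cannot be told apart in this design, and the labels do not say whether the triplicate cultures were independent beyond being triplicate, so the p-values reflect only how these arrays vary, which may be technical.

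The values are MAS5 signals on a linear scale. Every array had a trimmed mean of 500, and median signals ran from 54.8 to 61.9 with NCOR1-LYN and from 56.0 to 57.0 in controls. The 3′ to 5′ signal ratio of beta-actin, a measure of RNA integrity, was lowest on both replicate 1 arrays, at 1.15 (NCOR1-LYN) and 1.17 (control), against 1.19 to 1.24 on the other arrays, and that of Gapdh was 0.681 and 0.685, against 0.703 to 0.742. Of 12 measured pro-B markers, 9 lay below a signal of 64 on all 6 arrays and 1, the B cell receptor component Cd79b, lay above it on all 6 (signals of 403 to 577). Of 6 general haematopoietic and interleukin 3 receptor genes, 4 were above it on every array: Il3ra, Csf2rb, Csf2rb2 and the leukocyte marker Ptprc. The other 2, Kit and Cd34, lay below it on all 6. The summed signal of 8 neutrophil and macrophage markers was 6920 to 10350 with NCOR1-LYN and 2260 to 2557 in controls. Only Ngp, Prtn3 and Csf1r of those 8 were above 64 on all arrays, and Ngp and Prtn3 made up most of that sum. Ngp and Ltf were higher on every NCOR1-LYN array than on every control. Prtn3 was nearly equal on the replicate 1 arrays (1746 with NCOR1-LYN, 1763 in the control). The macrophage marker Csf1r overlapped between the groups (115 to 152 with NCOR1-LYN, 103 to 188 in controls). The summed signal of 5 mast cell markers was 1751 to 4467 with NCOR1-LYN and 562.9 to 1701 in controls. Only Fcer1a of those 5 was above 64 on all arrays and made up most of that sum, while Cma1 ran the other way (80.5, 5.74 and 52.4 with NCOR1-LYN, against 615, 189.6 and 186 in controls). On the replicate 1 arrays alone, NCOR1-LYN against control, the sums were 6920 and 2260.0 for neutrophil and macrophage markers, 1751 and 1701 for mast cell markers, 7556 and 9353 for erythroid markers, 763.5 and 926.5 for pro-B markers and 32420.0 and 51860.0 for general haematopoietic and interleukin 3 receptor genes. Csf2rb, a subunit of that receptor, had signals of 13827, 20743 and 25885 in NCOR1-LYN replicates 1, 2 and 3 and of 22251, 12964 and 12267 in controls, so that its direction in pair 1 was opposite to that in pairs 2 and 3. T and NK cell and fibroblast markers were below a signal of 64 on all arrays for 4 of 5 genes each, and no marker of any list was at exactly 0. The part of RNA integrity or of these lineage genes in the results below was not tested.

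Promoter windows of 300 bases, from 250 bases before to 50 after a gene's start, were available from RefSeq (GRCm38.p6) for 31 of the 36 genes (35 windows) and were searched on both strands for 3 motifs. The letters CACGTG, the palindromic E-box bound by MYC and related factors, stood in 4 of 35 windows (11.4%), against 9.86% of the windows of all genes tested and 7.15% of all windows. The 30 bases around each are shown for all 4 genes. Nop2 and Pes1 also passed the test of replicate 1 against replicates 2 and 3 described below. Utp20 and Wdr43 passed the other test described there, on the change of the replicate 1 pair. Of the 35 genes tested, 17 passed at least 1 of these tests, a share that was not counted over all genes. The replicate 1 test called 25.7% of the set against 34.4% of all genes. The pair 1 test called 31.4% against 12.0%. A link to the E-box was not tested. The E-box is in capitals, and each stretch is written 5′ to 3′ on the strand of the gene.
Nop2 (chr6:125131811-125131840, + strand, 60 bases before the start): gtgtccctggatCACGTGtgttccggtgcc
Pes1 (chr11:3963965-3963994, + strand, base 3 after the start): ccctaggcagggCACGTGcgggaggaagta
Utp20 (chr10:88826765-88826794, − strand, base 38 after the start): cccagcggcactaactaCACGTGaggaaaa
Wdr43 (chr17:71616220-71616249, + strand, base 18 after the start): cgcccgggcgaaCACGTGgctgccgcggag
The E-box of Nop2 lay ahead of the start, and the other 3 lay within the transcribed part of the window. The letters CCGGAAGT, a core of ETS factor sites, stood in 7 windows of 6 genes (Gar1, Heatr1, Nhp2, Noc2l, Polr1c and Polr1e), which is 20.0% of the windows, against 8.43% of the windows of all genes tested and 3.89% of all windows. TATAAA, the TATA box, stood in 2 windows (5.71%), against 6.99% for all genes tested. No window held both the E-box and the ETS letters. The 250 bases before the start of Heatr1 (chr13:12395125-12395374, + strand), whose ETS letters begin 16 bases before the start and are in capitals, are given as an example of such a promoter without TATAAA.
Heatr1: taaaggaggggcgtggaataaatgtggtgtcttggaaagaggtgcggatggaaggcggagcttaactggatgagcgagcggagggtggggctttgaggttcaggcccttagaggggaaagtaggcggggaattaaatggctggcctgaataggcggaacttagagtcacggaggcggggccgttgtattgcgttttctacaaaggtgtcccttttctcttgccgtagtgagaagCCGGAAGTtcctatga
These matches describe letters in a window and do not show binding.

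NCOR1-LYN cells were set against controls to ask whether ribosome biogenesis genes changed when the fusion was induced. With all arrays, 0 of the 35 genes passed the threshold (an adjusted p below 0.05 in limma over all 10916 genes), against 0.0824% of all genes (0.0550% higher and 0.0275% lower). None had an unadjusted p below 0.05 (0 of 35, against 4.75% of all genes), and their smallest adjusted p was 0.9991. With the replicate number as a block, again 0 passed, against 0.824% of all genes (0.266% higher and 0.559% lower). In that fit 1 gene had an unadjusted p below 0.05, against 11.3% of all genes, namely Pes1 (unadjusted p = 0.0397, adjusted p = 0.406, limma). The log2 changes ran from −0.24 to 0.37, with a median of 0.08 against −0.01 for all genes tested, and 26 of 35 lay above 0. Log2 changes here and below are of the signal plus 64, which understates changes of dim genes.

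By the brightest probe sets, 4 genes had no overlap between the groups, 11.4% of the set against 11.2% of all genes. All 4 stood higher with NCOR1-LYN. Rrp9, a protein of the U3 snoRNP that starts processing of the small subunit, had signals of 1273, 850 and 742 in NCOR1-LYN replicates 1, 2 and 3 and of 689, 699 and 728 in the controls (log2 change 0.37 ± 0.20, SE). Nop56, a core protein of box C/D snoRNPs, had 6631, 6389 and 5697 with NCOR1-LYN, against 4664, 5573 and 5488 in controls (0.25 ± 0.13). For both genes the replicate 1 arrays were the farthest apart, with NCOR1-LYN 1 the highest of the 6 and control 1 the lowest. Bysl, an assembly factor of the small subunit, had 1385, 989 and 1031 with NCOR1-LYN and 934, 930.3 and 933 in controls (0.25 ± 0.15). Polr1e, a subunit of RNA polymerase I, had 775, 828 and 848 with NCOR1-LYN and 643, 701 and 735 in controls (0.22 ± 0.13). Polr1e was unlike the other 3 in that its change was alike in the pairs of same-numbered arrays, at 0.25, 0.22 and 0.19, although its other probe set, nearly as bright, had 0.06, 0.14 and 0.28. The other probe set of Nop56, nearly as bright, had pair changes of 0.56, 0.20 and −0.13. A dimmer probe set of Bysl had 0.48, 0.06 and −0.07. In both of these probe sets NCOR1-LYN 3 lay below control 3, so the groups overlapped.

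At the other end stood Pes1, which forms with Bop1 and Wdr12 a complex needed for the large subunit. Pes1 had signals of 2339, 1863 and 1995 with NCOR1-LYN and 3079.5, 2089.5 and 2279.9 in controls, a log2 change of −0.24 ± 0.17 (SE) with negative changes in all 3 pairs. A dimmer probe set of Pes1 had a log2 change of 0.03. Npm1, the abundant nucleolar chaperone nucleophosmin, averaged 27612 ± 1429 with NCOR1-LYN and 27616 ± 1064 in controls (SD, n = 3 each). Nop10, the smallest protein of the box H/ACA snoRNP, averaged 11547 ± 1182 with NCOR1-LYN and 11535 ± 580.2 in controls. For Npm1 and Nop10 the group means thus differed by far less than the spread within a group.

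**Figure D1:**
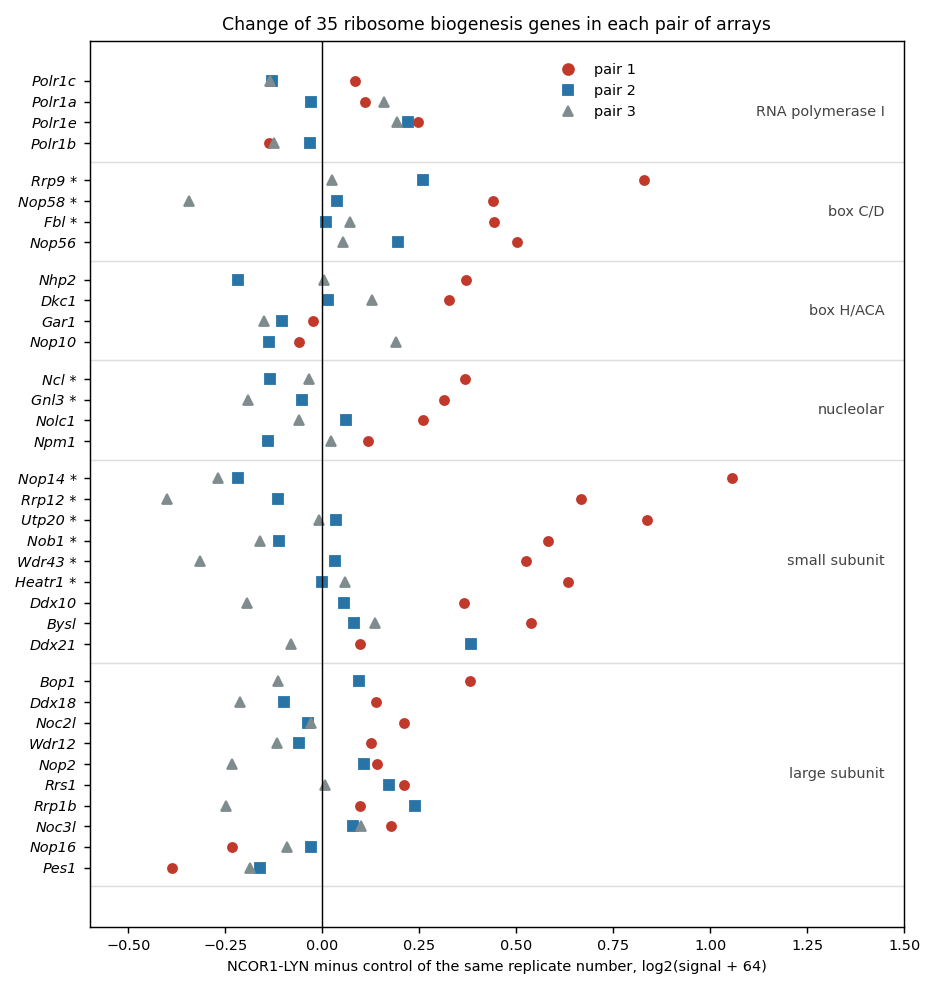
Log2 change, NCOR1-LYN minus control, of each of the 35 genes in the pairs of arrays with replicate numbers 1, 2 and 3, ordered by role; an asterisk marks the 11 genes whose pair 1 change differed from pairs 2 and 3 (adjusted p below 0.05, limma). Pair 1 lies to the right of both other pairs for 28 of 35 genes, and most widely so for the small-subunit genes.

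Set out by pair, the genes did not move alike. The median log2 change was 0.26 in pair 1, −0.00081 in pair 2 and −0.08 in pair 3, against −0.03, −0.02 and 0.01 for all genes tested. In pair 1, 30 of 35 genes lay above 0, against 46.4% of all genes; 17 did in pair 2 (47.1% of all genes) and 13 in pair 3 (51.5%). The change of pair 1 was the largest of the 3 pairs for 28 genes (80%), against 36.2% of all genes. NCOR1-LYN 1 was the highest of the 6 arrays for 22 genes (62.9%), against 21.0% of all genes, and control 1 the lowest for 15 (42.9%), against 22.8%. Within controls, replicate 1 minus the mean of replicates 2 and 3 had a median of −0.08 (0.05 for all genes), and within NCOR1-LYN of 0.31 (0.03 for all genes).

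Whether the change of pair 1 differed from that of pairs 2 and 3 was tested as an interaction. Replicate 1 was known from earlier results to stand apart, so this split was not chosen blind to the data. Of the 35 genes, 11 passed (31.4%), all with a higher change in pair 1 and 0 with a lower one, against 12.0% of all genes in either direction (5.22% higher and 6.79% lower). With median centring of the arrays 15 of the 35 passed, again all higher, and the balance over all genes turned over, with 819 genes higher and 558 lower. The difference was above 0 for 30 of 35 genes, with a median of 0.26 against −0.02 over all genes, and 19 of 35 had an unadjusted p below 0.05 (27.1% of all genes). NCOR1-LYN 1 was the highest of the 6 arrays for all 11 genes that passed, and control 1 was also the lowest for 6 of them. Genes picked for a higher change in pair 1 favour that order, and its share among all genes called higher was not counted. The called genes were 6 of 9 small-subunit genes, 3 of 4 box C/D genes and 2 of 4 nucleolar scaffold genes, with 0 of 4 RNA polymerase I, 0 of 4 box H/ACA and 0 of 10 large-subunit genes; differences between the roles were not tested. Pair 1 holds 1 array per group, so this test takes its spread from replicates 2 and 3 alone, with 2 residual degrees of freedom. It also leans on limma's intensity trend: without the trend only Nop14 passed among the 35 and 78 genes in all (1311 with it), while without the filter on dim genes Nop14, Utp20 and Nob1 passed.

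Among the small-subunit genes, Nop14 had the largest difference. Nop14 encodes a processome protein needed for 18S ribosomal RNA maturation. Its signals were 1940.4, 1274.5 and 1237 in NCOR1-LYN replicates 1, 2 and 3 and 899.5, 1492 and 1504 in controls, so that the replicate 1 arrays were the highest and the lowest of all. The pair changes were 1.06, −0.22 and −0.27, a difference of 1.30 ± 0.12 (SE, adjusted p = 0.000468, limma). It passed in all 12 alternative settings.

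Utp20, a very large scaffold protein of the processome, had signals of 1492, 779.8 and 744 with NCOR1-LYN and 807, 759 and 749 in controls. The single NCOR1-LYN 1 array stood apart and the other 5 lay close together (difference 0.82 ± 0.15, adjusted p = 0.00838). Heatr1, the homologue of yeast Utp10 and a factor for both polymerase I transcription and processing, showed the same layout, with 2063, 1429.7 and 1399 with NCOR1-LYN and 1309, 1430.5 and 1339.9 in controls (0.60 ± 0.13, adjusted p = 0.0168). Its 2 further probe sets gave differences of 0.41 and 0.11.

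Nob1, the endonuclease that makes the final cut at the 3′ end of 18S ribosomal RNA, resembled Nop14. It had 1917, 1432 and 1374 with NCOR1-LYN and 1260.8, 1554 and 1543 in controls (0.72 ± 0.12, adjusted p = 0.007). Rrp12, which takes part in export and maturation of pre-40S particles, was dimmer, with 377, 238 and 213 in NCOR1-LYN cells and 214, 263 and 301 in controls (0.92 ± 0.24, adjusted p = 0.0363). Wdr43, a processome subunit, had 3640.1, 3289 and 2529 with NCOR1-LYN and 2509, 3215 and 3163 in controls (0.67 ± 0.18, adjusted p = 0.0458). For Rrp12 and Wdr43, pairs 2 and 3 themselves differed, and the pair changes ran from 0.67 to −0.40 and from 0.53 to −0.32.

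The 3 small-subunit genes that did not pass were Ddx10, Bysl and Ddx21. Ddx10 and Bysl, an RNA helicase and an assembly factor, had differences of 0.43 ± 0.13 and 0.43 ± 0.14 (adjusted p = 0.063 and 0.0748). Ddx21, a helicase that links polymerase I transcription to processing, had −0.05 ± 0.19, and its highest array was NCOR1-LYN 2, with a signal of 3574 against 2448 to 2880.0 on the other 5. A second, somewhat dimmer probe set of Ddx21 went the other way, with a difference of 0.65 and pair changes of 0.64, −0.17 and 0.16.

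The box C/D snoRNP methylates ribosomal RNA through the methyltransferase fibrillarin, encoded by Fbl. Fbl had signals of 11372, 6803 and 7115 in NCOR1-LYN replicates 1, 2 and 3 and of 8346, 6761 and 6765 in controls. Both replicate 1 arrays were above all others, and the NCOR1-LYN one by more (difference 0.40 ± 0.10, adjusted p = 0.0358). Its scaffold partner Nop58 showed the same order, with 10186, 6581 and 5274 in NCOR1-LYN cells and 7487, 6405 and 6712 in controls (0.59 ± 0.16, adjusted p = 0.0472). Rrp9, whose signals are given above, had a difference of 0.69 ± 0.16 (adjusted p = 0.0284). Nop56 had 0.38 ± 0.12 and did not pass (adjusted p = 0.0748).

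Among the nucleolar scaffold and chaperone genes, Ncl (nucleolin, an RNA-binding protein of the nucleolus) had signals of 22505, 17853 and 18560.3 with NCOR1-LYN and 17425, 19623 and 19018 in controls (0.45 ± 0.11, adjusted p = 0.0283). NCOR1-LYN 1 stood above the other 5 arrays, which lay close together. Gnl3 (nucleostemin, a nucleolar GTPase of growing cells) had 5591, 3566 and 3208 with NCOR1-LYN and 4488, 3701 and 3673 in controls (0.44 ± 0.12, adjusted p = 0.0445). Nolc1, a chaperone of snoRNPs, and Npm1 had differences of 0.26 ± 0.11 and 0.18 ± 0.12 and did not pass.

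Genes of the box H/ACA snoRNP, which pseudouridylates ribosomal RNA, differed among themselves. Nhp2 had a difference of 0.48 ± 0.14 (adjusted p = 0.0602) and Dkc1, the pseudouridine synthase dyskerin, of 0.26 ± 0.11, while Gar1 and Nop10 had 0.10 ± 0.10 and −0.09 ± 0.14. The RNA polymerase I subunits Polr1a, Polr1b, Polr1c and Polr1e had 0.05 ± 0.23, −0.06 ± 0.18, 0.22 ± 0.11 and 0.04 ± 0.15. Further probe sets above the filter gave 0.34 and 0.51 for Polr1a, 0.25 for Polr1c and −0.15 for Polr1e. By their brightest probe sets, large-subunit genes ran from −0.21 ± 0.13 for Pes1 to 0.39 ± 0.13 for its partner Bop1 (adjusted p = 0.0884, limma). Wdr12, the third protein of that complex, had 0.21 ± 0.11. Bop1 had signals of 2184, 1634 and 1494 with NCOR1-LYN and 1663, 1526 and 1622 in controls, and only NCOR1-LYN 1 stood apart. Nhp2 had 13521, 9460.2 and 11215 with NCOR1-LYN and 10442, 10999.7 and 11182 in controls. The helicase gene Ddx18 had a difference of 0.29 ± 0.12, Noc2l of 0.24 ± 0.13, Nop2 of 0.20 ± 0.20, Rrs1 of 0.12 ± 0.16, Rrp1b of 0.10 ± 0.27, Noc3l of 0.09 ± 0.20 and Nop16 of −0.17 ± 0.11. None of these large-subunit genes passed. Further probe sets above the filter had the opposite sign for Pes1 (0.55), Bop1 (−0.07) and Ddx18 (−0.02 and −0.03). They kept the sign for Wdr12, Nop16, Rrp1b, Rrs1 (0.48), Noc2l and Noc3l.

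**Figure D2:**
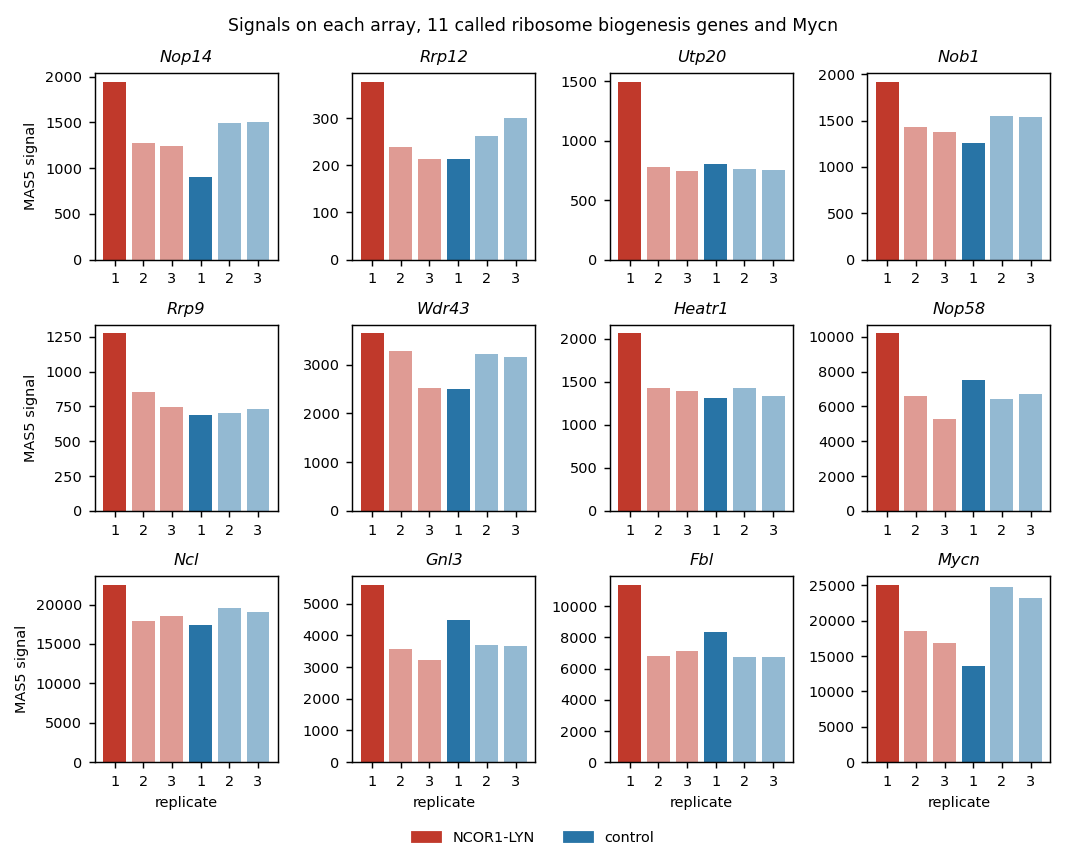
MAS5 signals (linear axis from 0) of the 11 called genes and of Mycn on each array, each gene by its brightest probe set. NCOR1-LYN replicates 1 to 3 are in red and control replicates 1 to 3 in blue, replicate 1 in the darker shade. The other 2 probe sets of Mycn, not drawn, went the other way in pair 1. NCOR1-LYN 1 is the highest bar in all 12 panels, whose genes were picked for a higher change in pair 1. Control 1 is the lowest for Mycn and for 6 of the called genes (Heatr1, Ncl, Nob1, Nop14, Rrp9 and Wdr43). It lies above controls 2 and 3 for Fbl, Gnl3, Nop58 and Utp20.

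Other genes of the pathway were read from lists chosen by role. Of 188 such genes tested, 0 passed for NCOR1-LYN against control with or without the block, and 2 had an unadjusted p below 0.05 without it. Their changes ran from −1.11 for the ribosomal protein gene Rpl39 to 0.49 for Mdn1, an AAA ATPase that remodels pre-60S particles. For the difference of pair 1, 26 passed as higher and 3 as lower (15.4% against 12.0% of all genes).

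By role, the share called was highest for the nuclear exosome and related nucleases, with 5 of 15 higher and 0 lower (33.3%). Over all genes 12.0% were called, 5.22% higher and 6.79% lower. They were led by Dis3 (0.99 ± 0.12), a catalytic subunit, followed by Exosc8 (0.61), Exosc10 (0.58) and Mphosph6 (0.53), other genes of the exosome and its cofactors. Of 47 further large-subunit factors 10 were higher and 1 lower (23.4%). Ebna1bp2, a nucleolar pre-60S factor, had 1.05 ± 0.15, followed by Wdr74 (0.95), Mdn1 (0.90) and Lyar (0.82), and the lower gene was Las1l (−0.62), an endonuclease of the internal spacer. Of 43 further small-subunit factors 8 were higher and 0 lower (18.6%). They were led by Pno1 (0.68 ± 0.11), the partner of Nob1, with Ltv1 (0.65), Utp3 (0.65) and Ddx52 (0.59).

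Of 9 snoRNP assembly factors 2 were higher and 0 lower (22.2%, against 12.0% of all genes), Znhit6 (0.76) and the AAA ATPase gene Ruvbl2 (0.44). None of 11 further polymerase I subunits and factors, 9 polymerase III subunits or 22 small-subunit ribosomal protein genes passed (0 each in limma, with 1, 1 and 1 at an unadjusted p below 0.05), and the largest differences there were those of Twistnb (0.38), Polr3g (−0.43) and Rps27 (−0.69). Of 22 large-subunit ribosomal protein genes, 1 was lower, Rpl39 (−1.48 ± 0.35).

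In the network of MYC factors, Mycn had a higher change in pair 1 by its brightest probe set only. Mxi1, a partner of MAX that opposes MYC, had a lower one (−0.64 ± 0.12). The brightest probe set of Mycn had signals of 25061, 18553 and 16841 in NCOR1-LYN replicates 1, 2 and 3 and of 13533, 24759 and 23251 in controls (difference 1.33 ± 0.12, adjusted p = 0.000429). Its other 2 probe sets had differences of −0.27 and −0.59, so the probe sets of Mycn disagreed in direction. The brighter of those 2 had pair changes of −0.86, −0.54 and −0.63, and the dimmer of −1.05, −0.41 and −0.50. In both, every NCOR1-LYN array lay below every control. Myc had a difference of 0.08 ± 0.13, with pair changes of 0.49, 0.53 and 0.29.

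**Figure D3:**
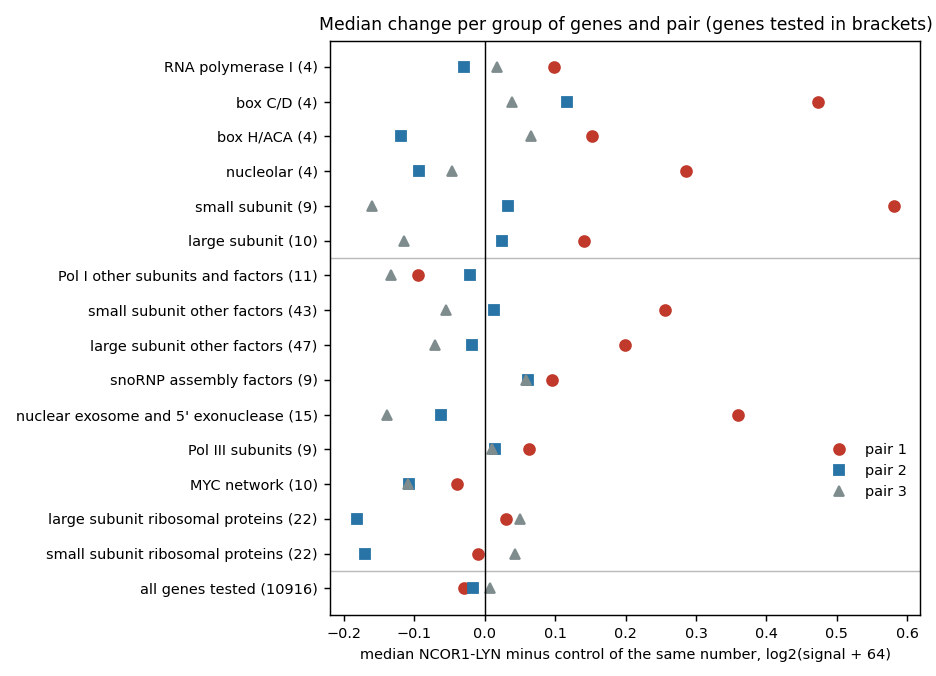
Median log2 change, NCOR1-LYN minus control, in pairs 1, 2 and 3, for the 6 roles of the 35 genes (top), 9 lists of other pathway genes (middle) and all genes tested (bottom), with the number of genes in brackets. Pair 1 is highest for small-subunit genes (0.58), box C/D genes (0.47) and the nuclear exosome list (0.36), and near 0 for ribosomal protein genes.

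The replicate 1 arrays of both groups together were set against replicates 2 and 3, with group as a covariate. This split follows the labels' numbers, and replicate 1 was known from earlier results to stand apart across the genome: 34.4% of all genes passed in limma (19.4% higher and 15.0% lower in replicate 1). That balance depended on the scaling, with 2122 genes higher and 1634 lower as deposited, 1552 and 1808 after quantile normalization, and 1448 and 2383 with median centring. Of the 35 genes, 9 passed (25.7%), 8 higher and 1 lower, by the brightest probe sets a share below that of all genes. An unadjusted p below 0.05 (limma) was found for 13 (45.0% of all genes). The median difference was 0.15 against 0.04 for all genes, and with median centring it was 0.03 against −0.07, with 5 of the 35 higher and 2 lower. The genes called here and those called for the pair 1 difference had Fbl, Gnl3 and Nop58 in common. With the mean of all probe sets in place of the brightest, 13 of the 35 passed, 12 higher and 1 lower. Over all 10916 genes 3226 passed in that setting, so the share of the set was then above that of all genes.

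Nop2, the methyltransferase of 28S ribosomal RNA whose E-box is shown above, had the largest difference. Its signals were 1650.4 (NCOR1-LYN) and 1489.5 (control) in replicate 1, against 995.2 and 758 in NCOR1-LYN replicates 2 and 3 and 919 and 902 in controls 2 and 3 (0.78 ± 0.12, adjusted p = 0.00272). Both replicate 1 arrays lay above all others and near each other. Polr1a, the largest subunit of polymerase I, had 401 (NCOR1-LYN) and 367 (control) in replicate 1, against 233 and 246 in the other NCOR1-LYN arrays and 239 and 214 in the other controls (0.59 ± 0.12, adjusted p = 0.00685). Polr1c, which polymerase I shares with polymerase III, was the 1 lower gene, with 2122 (NCOR1-LYN) and 1997 (control) in replicate 1, against 2641 and 2671 in the other NCOR1-LYN arrays and 2893 and 2941 in the other controls (−0.42 ± 0.08, adjusted p = 0.00701).

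The other called genes had smaller differences. These were Gnl3 (0.50 ± 0.11), Fbl (0.50 ± 0.10), Nop58 (0.49 ± 0.14), Pes1 (0.38 ± 0.09), Polr1b (0.34 ± 0.10) and Noc2l (0.28 ± 0.09), an export factor of the large subunit. Polr1b had 574 (NCOR1-LYN) and 638 (control) in replicate 1, against 465 and 434 in the other NCOR1-LYN arrays and 477 and 478 in the other controls. Noc2l had 2138 and 1838 in replicate 1, against 1552 and 1656 in the other NCOR1-LYN arrays and 1594 and 1690.4 in the other controls. Polr1a, Polr1c, Fbl, Gnl3 and Nop2 passed in every alternative setting in which they were tested. Polr1b, Noc2l, Nop58 and Pes1 lost the call in 9, 12, 8 and 3 of 16 settings. Without control 1, 19 of the 35 genes passed, against 3967 of all 10916 genes. Without NCOR1-LYN 1, 14 passed, against 4567 of all genes, and without control 2, 5 passed, against 2689. Of the other 188 pathway genes, 42 were higher and 17 lower in replicate 1 (31.4%), from −1.06 for Rpl27a to 1.11 for Rpl12.

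Probe sets of 1 gene read the same RNA on the same arrays, and 25 of the 35 genes had 34 further probe sets above the filter. For the pair 1 difference, 27 of the 34 had the sign of the brightest probe set (79.4%, against 66.2% over all genes). So had all 8 further probe sets of called genes (of Fbl, Heatr1, Ncl and Wdr43). Called genes were picked for a large difference, which favours a like sign, and the share for called genes over the array was not counted. Nop14, Utp20, Nob1, Rrp9, Rrp12, Nop58 and Gnl3, also called, had no further probe set. The 4 further probe sets of Ncl had differences of 0.53, 0.55, 0.40 and 0.12. The median distance from the brightest probe set was 0.17 for the pair 1 difference (0.22 over all genes) and 0.05 for NCOR1-LYN against control (0.11). It was 0.32 for replicate 1 against replicates 2 and 3 (0.30 over all genes), where 24 of 34 had the same sign (70.6%, against 63.2% over all genes).

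The scatter for replicate 1 was wide within single genes, though by median distance no wider than over all genes by more than a little (0.32 against 0.30). Dkc1 had replicate 1 differences of 0.22, 0.74 and −0.89 in its 3 probe sets, Nolc1 of 0.08, 0.43 and 1.01, Rrp1b of 0.24, 0.59 and −0.50, and Wdr12 of 0.10 and 1.46. The lower 3′ to 5′ ratios of the replicate 1 arrays given above stand beside this scatter, and their part in it was not tested. For called genes the further probe sets pointed the same way, with Polr1a at 1.26 and 0.48, Polr1c at −0.28, Fbl at 0.12, Noc2l at 0.22 and Pes1 at 0.18. These genes too were picked for a large difference, and Nop2, Gnl3, Nop58 and Polr1b, also called, had no further probe set.

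**Figure D4:**
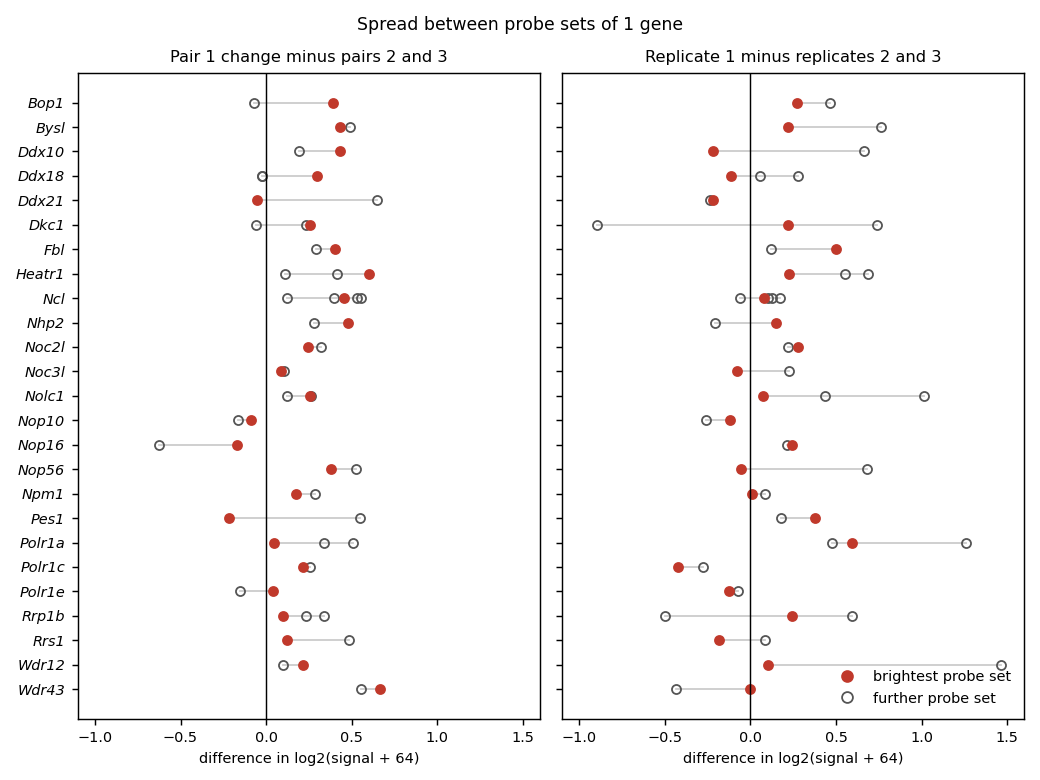
Differences in log2(signal + 64) for every probe set above the filter of the 25 genes with more than 1, for the pair 1 change minus pairs 2 and 3 (left) and for replicate 1 minus replicates 2 and 3 (right); red points are the brightest probe set and open points the further ones. Probe sets of a gene lie closer together on the left (median distance 0.17) than on the right (0.32), as they do over all genes (0.22 and 0.30). On the right Dkc1 spans −0.89 to 0.74.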

How the data were processed

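RNA was biotin-labelled with an Affymetrix 3′ IVT kit, per the labels' protocols. The deposited values are linear intensity signals from MAS5, a method named in the submitters' processing notes (its version is not given in the sources used here) that subtracts mismatch signal. Depth has no counterpart on arrays, and their number (6) limits the precision. Of 45101 probe sets, 34945 had 1 gene symbol in the platform annotation, 932 several and 9160 none. Signals were used as log2(signal + 64), without further scaling. The brightest probe set stood for each gene, and genes below the 40th percentile (a signal of about 47.0) were left out.

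Tests used limma 3.58.1 in R 4.3.3 (lmFit, eBayes with trend, two-sided, Benjamini-Hochberg over 10916 genes): group alone (4 residual degrees of freedom), an indicator for replicate 1 with group (3), and their interaction (2). The fits were tested on simulated data. Members and lists were chosen with earlier results of these data known. Named genes were all members (Mrto4 without values), and of each list at most 4 called genes per direction, or the largest where none was called; for replicate 1, of the lists only the extremes are given. Alternatives covered the offset (16 and 256), the filter, scaling, probe set choice, trend, covariates, and leaving out each array or both replicate 1 arrays.

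Same-numbered arrays had correlations, across genes, of their deviations from group means of 0.62, 0.41 and 0.44, all above the limit of 0.1. They were treated as pairs, although the labels name no shared batch. Arrays of unlike number also passed that limit, at 0.49 for control 3 with NCOR1-LYN 2 and 0.40 for control 2 with NCOR1-LYN 3. The limit therefore cannot tell which of the replicate 2 and 3 arrays belong together. The separate changes of pairs 2 and 3 rest on the replicate numbers alone.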

Additional observations from a re-analysis of the deposited data

Results flagged for a closer look

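By the interaction test, which sets 1 array per group against a spread taken from replicates 2 and 3 alone (2 residual degrees of freedom), the change of the replicate 1 pair differed from that of pairs 2 and 3 (adjusted p below 0.05, limma) for 11 genes of the set. The log2 differences were 1.30 for Nop14, 0.92 for Rrp12, 0.82 for Utp20, 0.72 for Nob1, 0.69 for Rrp9, 0.67 for Wdr43, 0.60 for Heatr1, 0.59 for Nop58, 0.45 for Ncl, 0.44 for Gnl3 and 0.40 for Fbl. In each of the 11 genes NCOR1-LYN 1 was the highest of the 6 arrays, an order that picking genes by a higher change in pair 1 favours. The calls thus rest on the single replicate 1 arrays, which have no replicate of their own, and without limma's intensity trend only Nop14 passed. The split by replicate 1 was not chosen blind to the data. Outlying arrays within a group were not tested, since each group holds 3.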

How the results depend on the processing

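For NCOR1-LYN against control, 0 of the 35 genes passed in every setting run. The count over all genes, 9, was 90 with the replicate block, 740 without both replicate 1 arrays, 1 without the filter on dim genes, 1 with the filter at the 60th percentile, and 0 to 15 when 1 array was left out. Its split of 6 higher and 3 lower was 5 and 5 with median centring. Without both replicate 1 arrays 4 of the 35 had an unadjusted p below 0.05 (limma). The share of all genes at that level was not counted, and 740 of 10916 passed even the adjusted threshold there. Mycn, by its brightest probe set, had −0.44 in that setting. The members' median, 0.08, ran from −0.03 to 0.18 when 1 array was left out and was −0.06 without both replicate 1 arrays. The block changed no call of a member. For the pair 1 difference, the counts of 1311 genes and 11 members were 496 and 3 without the filter, 78 and 1 without the trend, 914 to 1606 and 5 to 16 when 1 of the 4 arrays of replicates 2 and 3 was left out (7 without control 2 and 5 without control 3), and 5 members passed with the mean of all probe sets; the cause was not tested. The members' median was 0.25 to 0.35 in these settings. The replicate 1 arrays, which carry that difference, could not be left out of it. For replicate 1 against 2 and 3, leaving out 1 array gave 2457 to 4567 genes, 5 to 19 members and medians of −0.08 to 0.31. There Nop14 ran from −0.70 (without NCOR1-LYN 1) to 0.60 (without control 1), Nob1 from −0.28 to 0.43 and Mycn from −0.82 to 0.50, so the sign of each turned with the array left out. The number of arrays limits the precision throughout.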
